A study of Mus musculus with 2 samples.

Results

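Dual specificity phosphatases are described here through 6 of their genes, Dusp1, Dusp2, Dusp4, Dusp5, Dusp6 and Dusp10, which were taken by name from the 25943 genes of a bone marrow expression table. All 6 were in the table. The study profiled whole bone marrow by single-cell RNA sequencing in 1 library from a mouse model of stroke, middle cerebral artery occlusion (MCAO), which blocks an artery of the brain, and in 1 control library. The mice of both libraries were male and wild type (WT), aged 8 to 10 weeks, with no other allele or agent given in the labels. How many animals each library pooled, the time after occlusion and whether the control animals had a sham operation are not stated in the sources used here. Marrow flushed from tibias and femurs was treated with red blood cell lysis buffer and captured without a sort on the BD Rhapsody microwell system.

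These enzymes remove phosphate from both the threonine and the tyrosine of activated mitogen-activated protein kinases (MAP kinases), and so switch them off. Most of them are themselves induced by the signals they end, which makes their transcripts a feedback readout of recent kinase activity in leukocytes. Dusp1, Dusp2, Dusp4 and Dusp5 encode nuclear enzymes that are made quickly after stimulation. Dusp1 acts on p38, JNK and ERK kinases and is a known glucocorticoid target that limits cytokine production by myeloid cells. Dusp2 was first described in activated lymphocytes, and Dusp5 is specific for ERK. Dusp6 encodes a cytoplasmic enzyme specific for ERK, and Dusp10 encodes an enzyme that prefers JNK and p38.

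The promoters of Dusp1, Dusp2 and Dusp5, the members lower by at least 1.5-fold in the most classes, are shown first. RefSeq sequences (build GRCm38.p6) matched 5 of the 6 members, and Dusp4 is named only. The stretches below run 5′ to 3′ on the strand of the gene from 250 to 41 bases before its RefSeq start. They lie at chr17:26508513-26508722 on the minus strand for Dusp1, at chr2:127335909-127336118 on the plus strand for Dusp2 and at chr19:53528895-53529104 on the plus strand for Dusp5. Capitals mark matches to the motifs searched.
Dusp1: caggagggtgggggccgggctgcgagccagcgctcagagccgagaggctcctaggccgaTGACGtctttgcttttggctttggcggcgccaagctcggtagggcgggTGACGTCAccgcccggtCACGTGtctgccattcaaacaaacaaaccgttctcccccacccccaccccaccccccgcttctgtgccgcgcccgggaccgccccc
Dusp2: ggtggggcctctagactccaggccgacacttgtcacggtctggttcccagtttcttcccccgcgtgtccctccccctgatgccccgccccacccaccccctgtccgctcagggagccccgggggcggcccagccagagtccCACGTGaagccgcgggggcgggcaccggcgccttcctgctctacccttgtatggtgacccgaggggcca
Dusp5: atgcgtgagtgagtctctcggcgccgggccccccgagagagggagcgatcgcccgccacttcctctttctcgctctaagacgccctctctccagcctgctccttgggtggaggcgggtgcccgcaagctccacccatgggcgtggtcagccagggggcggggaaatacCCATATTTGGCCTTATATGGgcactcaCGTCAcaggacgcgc
The motifs searched on both strands, in the 250 bases before each start, were TGACGTCA, the full cAMP response element, its shorter form TGACG, the CArG box bound by serum response factor, TGANTCA, the AP-1 site, CACGTG, an E-box, and the TATA box, TATAAA. Each TGACGTCA also counts as a match to the shorter form. Dusp1 held TGACGTCA 143 bases before its start, a second TGACG 191 bases before it and CACGTG at 126 bases. Dusp2 held CACGTG 109 bases before its start. Dusp5 held adjacent CArG boxes, CCATATTTGG at 82 bases and CCTTATATGG at 72 bases, with a TGACG match in reverse at 55 bases. Of 32851 RefSeq promoters, windows of the same length held TGACGTCA in 1.55%, TGACG in 17.8%, the CArG box in 1.47%, CACGTG in 6.02%, TGANTCA in 6.75% and TATAAA in 12.4%. Dusp6 and Dusp10 had no match to the 6 motifs in this window. A match is a run of letters and was not tested as a binding site.

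Cells numbered 5398 in the MCAO library and 5212 in the control library, and the median cell had 4952 and 3344 UMIs (unique molecular identifiers, each standing for 1 captured mRNA molecule). With 1 library per condition no difference has a replicate check, no test was made, and brackets give 95% intervals for the counting error alone. Cell types were rebuilt by clustering without the 6 members and named from marker genes with the ending "-like", so they may differ from the study's own. 13 classes had at least 50 cells in each library and were compared. A level is the sum of a gene's UMIs per 10000 UMIs of a class or cluster in a library, and a ratio is the MCAO level over the control level. Levels are not corrected for transcript length, so they are compared between cells and not between genes. In both libraries, mature-neutrophil-like cells held UMIs of genes of other cell types. Whether these came from free RNA was not tested. Haemoglobin genes summed to 16.7 UMIs per 10000 in MCAO and 9.45 in control mature-neutrophil-like cells, and B-lineage markers to 0.683 and 1.72. The 2 libraries shared 5120 cell names, which are running numbers, and no cell had the same UMI profile in both.

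Each member had its own distribution over marrow cells. Dusp1 was highest in mature-neutrophil-like cells, at 12.2 [11.8 to 12.5] UMIs per 10000 in the MCAO library and 19.6 [19.01 to 20.1] in the control library. Basophil-or-mast-like cells came next, at 3.77 in the MCAO library and 3.75 in the control library, followed by macrophage-like, immature-neutrophil-like and monocyte-like cells at 1.65 to 2.05 in the MCAO library and 2.55 to 3.11 in the control library. The counting intervals of macrophage-like and immature-neutrophil-like cells overlapped in both libraries. Neutrophil granule genes summed to 1408 in MCAO and 891 in control macrophage-like cells, against 1289 and 1010 in mature-neutrophil-like cells. Whether the Dusp1 UMIs of macrophage-like cells came from neutrophil RNA was not tested. Dusp2 was highest in B-cell-like cells, at 9.94 [9.42 to 10.5] in the MCAO library and 11.5 [10.99 to 12.1] in the control library. Pro-B-or-pre-B-like cells followed for Dusp2, at 6.01 and 9.13, then T-cell-like cells at 3.55 and 2.90, with every other compared class lower in both libraries. NK-cell-like cells, too few to be compared, held Dusp2 at 4.18 in 43 MCAO cells and 4.43 in 39 control cells.

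Dusp5 was spread over lymphoid, dendritic and some monocyte-like cells. Among the compared classes it was highest in the MCAO library in plasmacytoid-dendritic-like cells, at 1.72 [1.47 to 1.997] UMIs per 10000. The small monocyte-like cluster 19 held more than this in the MCAO library, as given below. In the control library the pro-B-or-pre-B-like class at 3.01 [2.80 to 3.23] and plasmacytoid-dendritic-like cells at 2.74 [2.37 to 3.15] had overlapping intervals. Cluster 12, the plasmacytoid-dendritic-like class, also held Cd209a, a marker of conventional dendritic cells, among its leading genes. Dusp6 was the most even member, and was highest in mature-neutrophil-like cells at 4.47 [4.25 to 4.69] in the MCAO library and 4.81 [4.54 to 5.10] in the control library. In the MCAO library the next class for Dusp6 was basophil-or-mast-like cells at 3.56, and in the control library it was B-cell-like cells at 3.10. Dusp10 was found mainly in B-cell-like cells, at 0.512 [0.399 to 0.647] in the MCAO library and 0.743 [0.613 to 0.893] in the control library. Dusp4 gave 9 UMIs in the 13 MCAO classes and 21 in the control classes, and its highest level was 0.0894 in MCAO T-cell-like cells from 3 UMIs. It was found in 0 of 1137 MCAO and 0 of 1045 control mature-neutrophil-like cells, which allows shares of cells with a UMI of up to 0.264% and 0.287%.

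**Figure D1:**
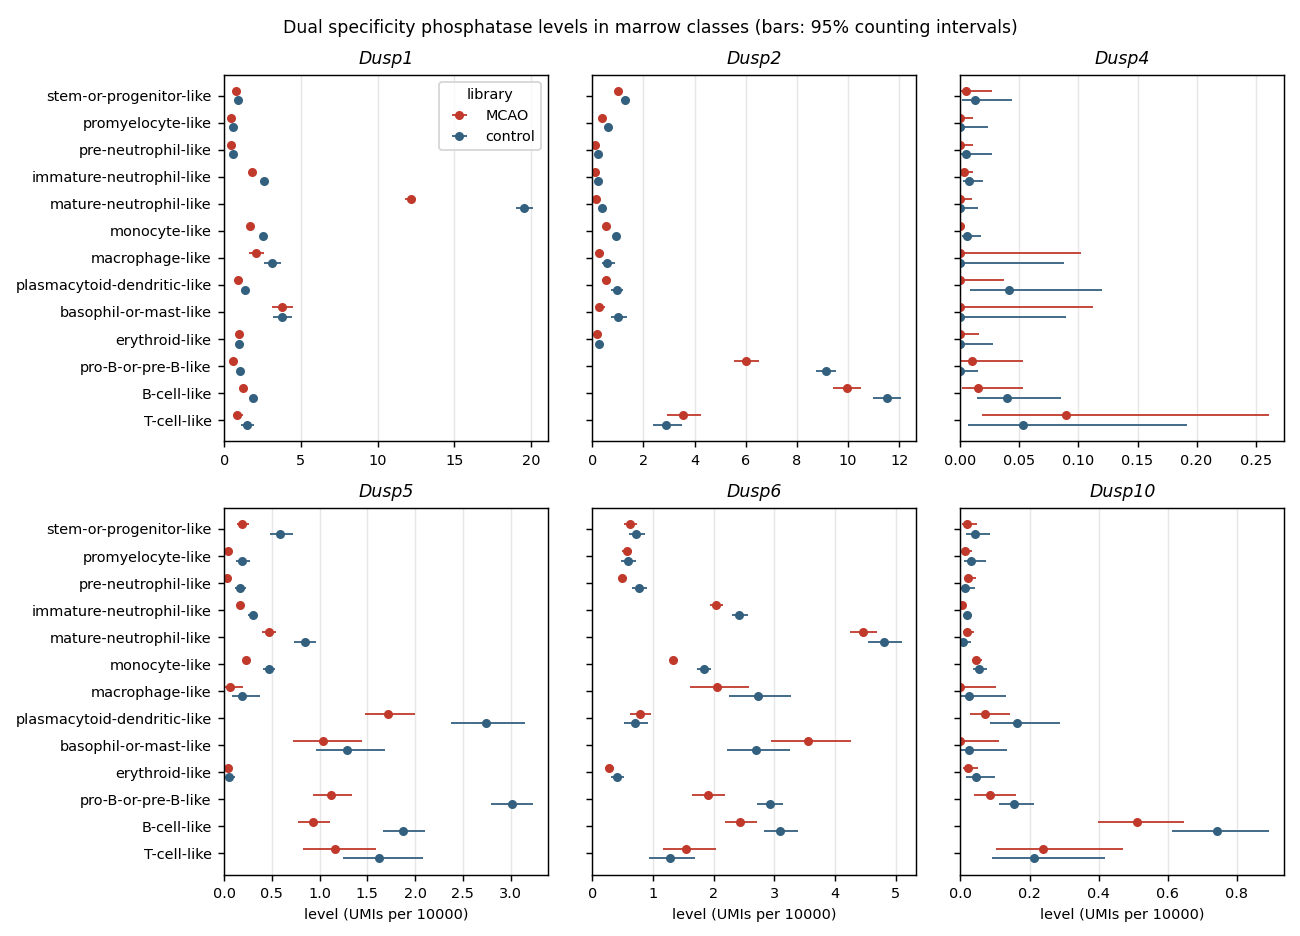
Level of each member (x axis, UMIs per 10000, with its own scale per panel) in the 13 compared classes, for the MCAO library (red) and the control library (blue), with 95% counting intervals as bars. Dusp1 peaks in mature-neutrophil-like cells, at 12.2 in the MCAO library and 19.6 in the control library, and Dusp2 in B-cell-like cells, at 9.94 and 11.5.

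Positions of the members are from the GENCODE M21 annotation of the mm10 assembly, which the submitters' processing notes name. All 6 are annotated as protein coding. Dusp1 is on the minus strand of chromosome 17 (26505590 to 26562128) and overlaps Ergic1 and Gm8225 on the opposite strand, and AC122252.4 and AC122252.1 on its own strand. Dusp2 lies on chromosome 2 from 127336159 to 127338376, Dusp4 on chromosome 8 from 34807297 to 34819894, Dusp5 on chromosome 19 from 53529109 to 53542431, Dusp6 on chromosome 10 from 99263231 to 99267489 and Dusp10 on chromosome 1 from 184013302 to 184075636, all on the plus strand. The RefSeq promoter windows of Dusp1 and Dusp10 lie inside these GENCODE spans, so RefSeq and GENCODE place the starts of these genes differently. Dusp5 and Dusp10 each overlap 1 gene model on the opposite strand. Whether the counts used strand was not given in the sources used here, so reads of Dusp1, Dusp5 and Dusp10 and of those neighbours may not be told apart. For the gene models on the strand of Dusp1, strand would not separate them either.

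The comparison of MCAO with control marrow asked which transcripts of marrow cells differed after stroke. The members were lower in the MCAO library in most places where they could be ranked, which required 50 UMIs over both libraries and a UMI in at least 2% of the cells of a class in 1 library. Dusp1 and Dusp6 were ranked in 13 classes, Dusp2 in 11, Dusp5 in 9, Dusp10 in 2 and Dusp4 in none, which gave 48 pairs of a member and a class. The log2 ratio was below 0 in 42 of the 48 pairs, with a median of -0.57, and 24 pairs were lower by at least 1.5-fold and 0 higher. Between 2.83% (monocyte-like cells) and 15.4% (macrophage-like cells) of all ranked genes were lower by that much in a class, and between 1.94% and 9.18% were higher. The median log2 ratio of all ranked genes lay between -0.09 and 0.02 in the 13 classes. By member, 8 of 11 Dusp2 pairs, 7 of 9 Dusp5 pairs, 7 of 13 Dusp1 pairs, 2 of 13 Dusp6 pairs and 0 of 2 Dusp10 pairs were lower by at least 1.5-fold. Some of the Dusp2 pairs lay at low levels, as given below. All 48 pairs share their 2 libraries and are not replicates.

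By class, the members ranked and lower were set against all ranked genes, as the share lower and the share higher by at least 1.5-fold. Pro-B-or-pre-B-like cells had the highest count, with 4 of 4 members lower against 8.59% of genes lower and 5.6% higher. Mature-neutrophil-like cells had 3 of 4 lower against 7.81% and 6.37%, plasmacytoid-dendritic-like cells 3 of 4 against 6.33% and 6.24%, and monocyte-like cells 3 of 5 against 2.83% and 2.13%. In these 3 classes the members were Dusp1, Dusp2 and Dusp5. There, and in the class with 4 of 4, fewer members passed 1.5-fold within clusters or under other settings, as given below. Pre-neutrophil-like cells had 2 of 3 lower against 3.06% and 3.14%, immature-neutrophil-like cells 2 of 4 against 3.03% and 1.94%, and B-cell-like cells 2 of 5 against 5.47% and 3.88%. These were Dusp2 and Dusp6 in pre-neutrophil-like, Dusp2 and Dusp5 in immature-neutrophil-like and Dusp1 and Dusp5 in B-cell-like cells. Under other settings Dusp2 came to log2 ratios of -0.24 in pre-neutrophil-like and -0.35 in immature-neutrophil-like cells, short of 1.5-fold. Dusp6 in the former, Dusp5 in the latter and Dusp1 in B-cell-like cells also fell short, at -0.54, -0.57 and -0.57. Dusp5 in B-cell-like cells stayed past it. 1 member was lower in promyelocyte-like cells (of 3, against 2.96% and 4.13%), erythroid-like cells (of 3, against 7.39% and 2.69%) and macrophage-like cells (of 2, against 15.4% and 8.04%). The same number was lower in stem-or-progenitor-like cells (of 4, against 4.77% and 3.27%) and T-cell-like cells (of 4, against 10.7% and 7.17%). Basophil-or-mast-like cells had 0 of 3 lower against 8.41% and 9.18%. Where 1 member was lower, Dusp2 in promyelocyte-like and erythroid-like cells and Dusp1 in macrophage-like cells fell short under some other settings. Their log2 ratios there came to -0.56, -0.52 and -0.40. Dusp5 in stem-or-progenitor-like and Dusp1 in T-cell-like cells stayed past 1.5-fold under each setting.

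**Figure D2:**
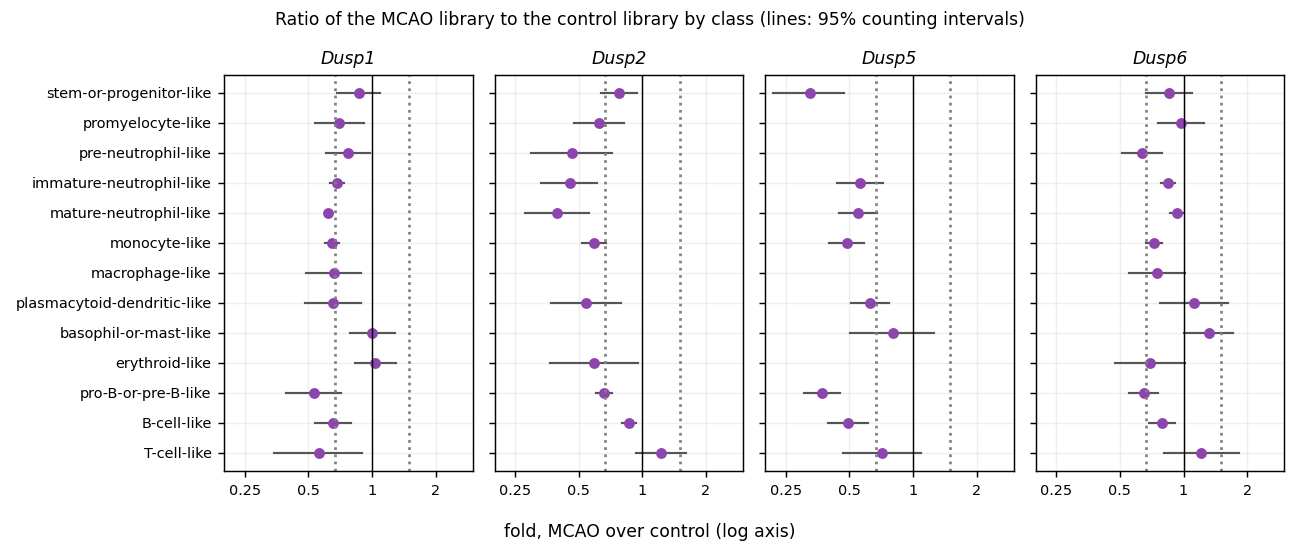
Ratio of the MCAO level to the control level (x axis, log scale) for Dusp1, Dusp2, Dusp5 and Dusp6 in each class where the gene was ranked, with 95% counting intervals as lines, a solid line at 1 and dotted lines at 1.5-fold in each direction. All 9 ranked classes of Dusp5 lie left of 1, and 2 of 13 classes of Dusp6 lie past the dotted line on that side.

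Part of these pairs lay at low levels. Erythroid-like cells, taken after the values were seen as a class in which little of these transcripts would be made, held Dusp1 at 0.986 UMIs per 10000 in the MCAO library and 0.954 in the control library. In mature-neutrophil-like cells, where Dusp2 was 1 of the 3 members counted as lower, its level was 0.151 in the MCAO library and 0.383 in the control library. It stood there at 22.1 UMIs per 100 UMIs of 12 B-lineage markers in the MCAO library and 22.2 in the control library, near the 23.5 and 24.9 of B-cell-like cells. Dusp2 was also counted as lower in immature-neutrophil-like cells, at 0.105 in the MCAO library and 0.231 in the control library. The same held in pre-neutrophil-like cells, where all 6 members together summed to 1.11 and 1.78. Whether these Dusp2 UMIs came from free RNA was not tested.

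Dusp1 was described most closely in the neutrophil line, where it was lowest in the earliest stages and highest in the last. In the MCAO library its level was 0.422 in promyelocyte-like, 0.452 in pre-neutrophil-like, 1.79 in immature-neutrophil-like and 12.2 in mature-neutrophil-like cells. In the control library the same stages held 0.603, 0.587, 2.61 and 19.6. The mature stage was the only one of the 4 with a Dusp1 UMI in most cells after each cell was thinned to 1000 UMIs, at 61.8% [58.9 to 64.6] of the 1136 cells in the MCAO library and 76.6% [73.9 to 79.2] of the 1010 in the control library. Without thinning these shares were 85.6% and 90.5%. After the same thinning 9.27% of MCAO and 10.4% of control erythroid-like cells held a Dusp1 UMI, at median depths of 6048 and 4497 UMIs against 2992 and 2132 in mature-neutrophil-like cells.

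The Dusp1 ratio of mature-neutrophil-like cells was 0.621 [0.597 to 0.647], from 4503 MCAO and 4806 control UMIs, but it was closer to 1 within the clusters of the class. The class joins 3 clusters that the libraries filled differently. Cluster 1, led by Il1b, Hcar2 and Ifit3b, held 34.5% of MCAO and 83.3% of control cells of the class, cluster 7, led by Stfa2l1, held 37.7% and 15.2%, and cluster 11, led by Stfa3 and Stfa2, held 27.8% and 1.53%. Dusp1 stood at 16.7 in MCAO and 20.2 in control cells of cluster 1, a ratio of 0.823 [0.778 to 0.870]. It stood at 16.4 and 18.0 in cluster 7, a ratio of 0.910 [0.830 to 0.998], and at 5.19 and 6.45 in cluster 11, where the control library had 16 cells. With clusters 1 and 7 given equal weight, and cluster 11 left out for its few control cells, the log2 ratio was -0.21. It was -0.69 for the class as measured. How far the cluster mix accounts for the class difference was not tested.

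Immature-neutrophil-like cells showed the same mixture. Their Dusp1 ratio was 0.686 [0.634 to 0.741]. Cluster 0, led by Ltf and Ngp, held 1.08 UMIs per 10000 in the MCAO library and 1.15 in the control library, a ratio of 0.936 [0.822 to 1.07]. Cluster 2, led by Mmp8, Retnlg and Mmp9, held 4.09 and 5.24, a ratio of 0.781 [0.706 to 0.863], and made up 27.7% of the MCAO and 41.3% of the control cells of the class. Pre-neutrophil-like and promyelocyte-like cells had Dusp1 ratios of 0.770 [0.604 to 0.983] and 0.700 [0.538 to 0.916], at levels below those of erythroid-like cells.

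Dusp6, the cytoplasmic ERK phosphatase, was higher in the immature and mature stages than in the earlier ones, with overlapping intervals of the libraries in the mature stage. In the MCAO library its level was 0.573 in promyelocyte-like, 0.492 in pre-neutrophil-like, 2.04 in immature-neutrophil-like and 4.47 in mature-neutrophil-like cells. The control library held 0.591, 0.774, 2.43 and 4.81 in the same stages. The ratio in mature-neutrophil-like cells was 0.928 [0.861 to 1.00], and in 39.2% of the ranked genes the ratio was at or below it. Within cluster 1 Dusp6 was slightly higher in the MCAO library, at 5.63 against 5.07 in the control library, and in cluster 7 the levels were 4.39 and 3.797 with a ratio of 1.16 [0.952 to 1.41]. Dusp5 was low in mature-neutrophil-like cells, at 0.464 [0.398 to 0.539] in the MCAO library and 0.842 [0.732 to 0.965] in the control library, a ratio of 0.551 [0.448 to 0.678]. In cluster 1 its ratio was 0.724 [0.538 to 0.964], at 0.624 in the MCAO library and 0.861 in the control library.

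**Figure D3:**
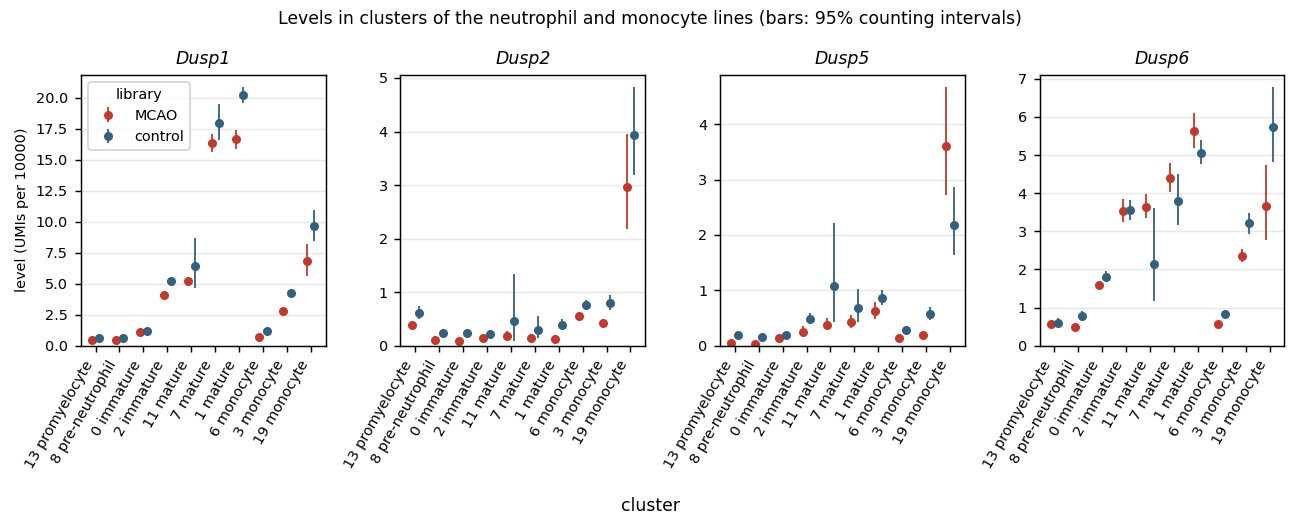
Levels of Dusp1, Dusp2, Dusp5 and Dusp6 (y axes, UMIs per 10000) in the clusters of the neutrophil and monocyte lines, for the MCAO library (red) and the control library (blue), with 95% counting intervals. Dusp1 reaches 16.7 in the MCAO library and 20.2 in the control library in cluster 1, and Dusp5 in cluster 19 is 3.60 in the MCAO library and 2.18 in the control library.

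In monocyte-like cells Dusp1, Dusp2 and Dusp5 were each lower in the MCAO library, but with the clusters of the class given equal weight 1 of the 3, Dusp1, stayed past 1.5-fold. Cluster 19, the smallest, held 4.99% of the MCAO and 11.2% of the control cells of the class. Dusp1 stood at 1.65 [1.57 to 1.74] UMIs per 10000 in the MCAO library and 2.55 [2.41 to 2.69] in the control library, a ratio of 0.648 [0.601 to 0.699]. The difference held in each of the 3 clusters of the class. Cluster 6, led by Cd34 and F13a1 and named by marker score, held 0.703 in the MCAO library and 1.15 in the control library. These levels lay near those of erythroid-like cells. Cluster 3, led by Vcan, Ccr2 and Fn1, held 2.82 and 4.24, a ratio of 0.666 [0.604 to 0.735]. Cluster 19, led by Cd300e and Ace, held 6.82 and 9.65, a ratio of 0.707 [0.557 to 0.893], and was named by score alone with no marker of its class among its leading genes. In the MCAO library 16.8% of 900 monocyte-like cells had a Dusp1 UMI after thinning, against 26.1% of 587 control cells.

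Dusp5 had its largest difference among the monocyte clusters in cluster 3, where it stood at 0.199 in the MCAO library and 0.567 in the control library, a ratio of 0.350 [0.253 to 0.483]. Cluster 6 had a Dusp5 ratio of 0.494 [0.358 to 0.680]. Cluster 19 went the other way, at 3.60 [2.73 to 4.67] in the 45 MCAO cells and 2.18 [1.63 to 2.86] in the 67 control cells. Over the class Dusp5 was 0.227 in the MCAO library and 0.467 in the control library, a ratio of 0.485 [0.399 to 0.588]. Dusp2 was 0.542 and 0.919, a ratio of 0.590 [0.518 to 0.672], with cluster 19 again the highest of the 3 at 2.97 and 3.94. Dusp6 was 1.34 and 1.84, a ratio of 0.727 [0.666 to 0.793], which did not reach 1.5-fold.

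**Figure D4:**
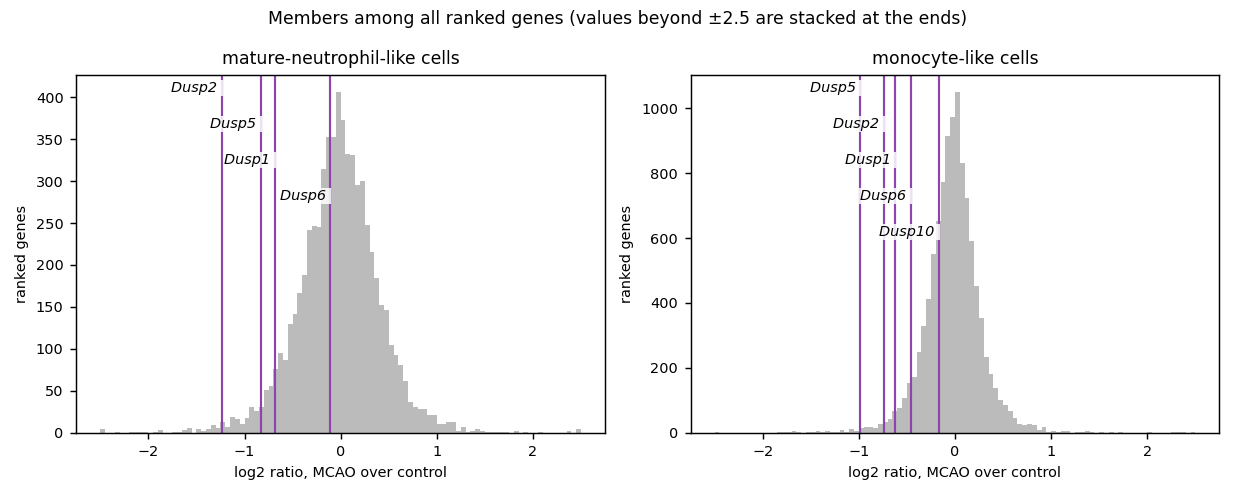
Number of ranked genes (y axis) by log2 ratio of the MCAO library to the control library (x axis), in mature-neutrophil-like cells (left) and monocyte-like cells (right), with a purple line for each ranked member. Dusp2, Dusp5 and Dusp1 lie in the lower tail in both panels, and Dusp6 lies at -0.11 in mature-neutrophil-like and -0.45 in monocyte-like cells.

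Among B-lineage cells Dusp2 was abundant in all stages and highest in cluster 5, which was led by Rag1, Il2ra and Il7r, genes of B-cell precursors. In cluster 5 Dusp2 stood at 12.6 [11.2 to 14.1] UMIs per 10000 in the MCAO library and 14.7 [14.0 to 15.4] in the control library. The MCAO interval overlapped that of cluster 9. Cluster 20, led by the surrogate light chain genes Vpreb1 and Igll1, held 6.16 and 7.02, and cluster 15, led by Nrgn and Nek2, held 3.20 and 4.88. In cluster 9, led by Ms4a1 and Cd40, Dusp2 was 11.5 [10.6 to 12.4] in the MCAO library and 10.98 [10.3 to 11.8] in the control library. In cluster 4, led by Fcer2a, Cr2 and Ighd, genes of mature B cells, it was 8.97 [8.34 to 9.64] and 12.0 [11.3 to 12.8]. After thinning, 48.5% of 204 MCAO and 57.9% of 675 control pro-B-or-pre-B-like cells had a Dusp2 UMI.

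Pro-B-or-pre-B-like cells had 4 of 4 ranked members lower by at least 1.5-fold, and B-cell-like cells 2 of 5, Dusp1 and Dusp5. Within cluster 5, which gave 23.1% of the MCAO and 40.8% of the control UMIs of the pro-B-or-pre-B-like class, 1 of 4 was lower, Dusp1. Of all genes ranked in cluster 5, 10.8% were lower and 8.02% higher by that much. The log2 ratios of Dusp2 and Dusp6 in the class were -0.60 and -0.62, and they came to -0.38 and -0.29 after thinning and to -0.33 and -0.37 as means over cells, short of 1.5-fold. Dusp5 had the lowest ratio, at 1.12 [0.928 to 1.34] in MCAO and 3.01 [2.80 to 3.23] in control pro-B-or-pre-B-like cells, a ratio of 0.372 [0.304 to 0.453]. Cluster 5, where Dusp5 was highest, held 56.8% of the MCAO and 70.6% of the control cells of that class, and within it the levels were 3.95 and 5.92 with a ratio of 0.667 [0.532 to 0.828]. In cluster 15 they were 0.308 and 1.01 and in cluster 20 they were 0.177 and 0.999. Cluster 20 had 31 MCAO and 59 control cells, so its MCAO value rests on few UMIs. In B-cell-like cells Dusp5 was 0.928 and 1.88, a ratio of 0.495 [0.398 to 0.612], and both clusters had lower MCAO levels, at 1.23 and 2.38 in cluster 9 and 0.738 and 1.38 in cluster 4.

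The remaining members separated the B-cell clusters. Dusp10 stood at 1.16 in MCAO and 1.40 in control cells of cluster 9, where it was among the 10 leading genes, and at 0.11 and 0.09 in cluster 4. Cluster 9 was likewise higher than cluster 4 for Dusp6, at 4.23 and 4.65 in cluster 9 and 1.32 and 1.55 in cluster 4. Dusp1 had the opposite order, at 0.625 and 0.927 in cluster 9 and 1.61 [1.35 to 1.90] and 2.82 [2.46 to 3.22] in cluster 4, where its ratio was 0.569 [0.456 to 0.709]. Over the pro-B-or-pre-B-like class Dusp6 had a ratio of 0.649 [0.553 to 0.760], but within cluster 5, at 4.28 in the MCAO library and 4.66 in the control library, it was 0.918 [0.735 to 1.14].

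**Figure D5:**
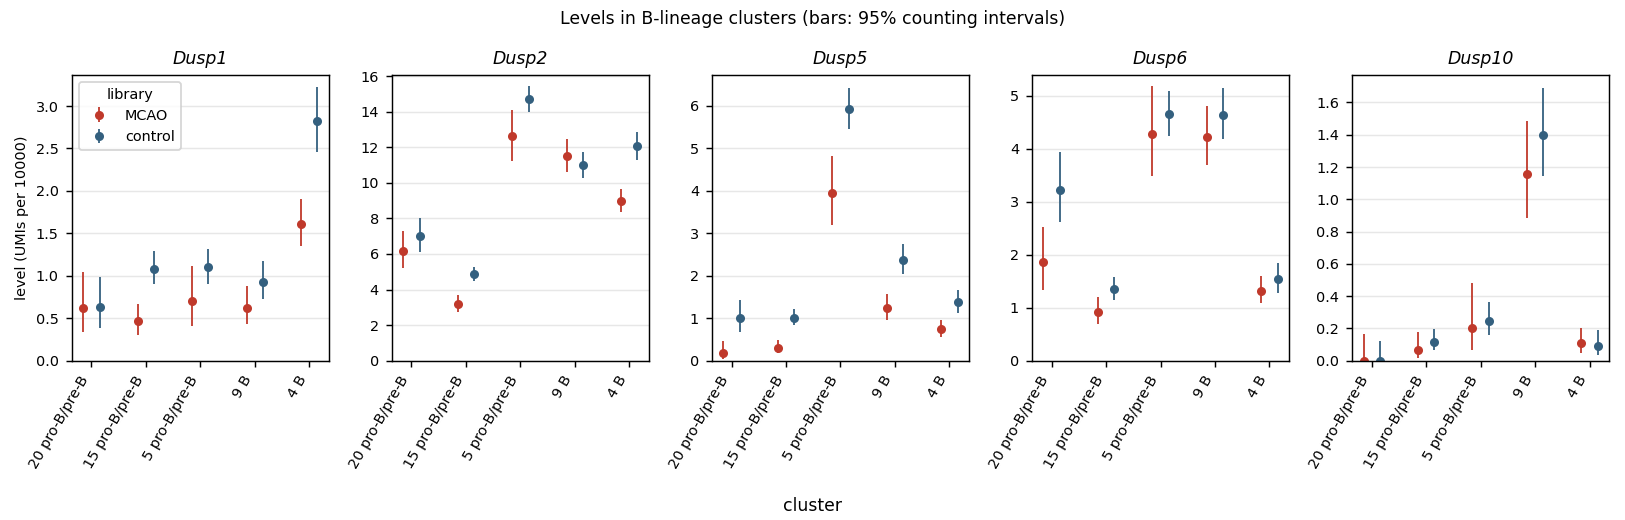
Levels of 5 members (y axes, UMIs per 10000) in the B-lineage clusters, for the MCAO library (red) and the control library (blue), with 95% counting intervals. Dusp2 and Dusp5 are highest in cluster 5, Dusp10 is at 1.16 in the MCAO library and 1.40 in the control library in cluster 9 and lower elsewhere, and Dusp1 is higher in cluster 4 than in cluster 9.

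In the remaining classes the members differed in direction. Stem-or-progenitor-like cells had the lowest ranked ratio of any pair for Dusp5, at 0.190 [0.136 to 0.259] UMIs per 10000 in the MCAO library and 0.587 [0.477 to 0.716] in the control library, a ratio of 0.324 [0.219 to 0.473]. The log2 ratio was -1.53 and ran from -3.98 to -1.24 under other settings. This class, cluster 14, was named by marker score and also held the erythroid marker Car1 among its leading genes. Plasmacytoid-dendritic-like cells had a Dusp5 ratio of 0.627 [0.509 to 0.773]. The calls of Dusp1, Dusp2 and Dusp5 in that class ended under 2 settings. At resolution 2 of the clustering the log2 ratios were -0.07 for Dusp1, -0.33 for Dusp2 and -0.46 for Dusp5, and after thinning they were -0.10, -0.39 and -0.31. T-cell-like cells had Dusp2 at 3.55 in the MCAO library and 2.90 in the control library, with a ratio of 1.22 [0.935 to 1.60] whose interval held 1. Basophil-or-mast-like cells, which also held the eosinophil genes Ear1 and Prg2, had Dusp1 at 3.77 and 3.75, a ratio of 1.01 [0.787 to 1.28]. Their Dusp6 level was 3.56 and 2.70, a ratio of 1.32 [1.01 to 1.72]. Macrophage-like cells, which also held many UMIs of neutrophil granule genes, had a Dusp1 ratio of 0.660 [0.490 to 0.885]. Within single clusters of at least 20 cells per library in which a member was ranked, the ratio was below 1 in 18 of 20 clusters for Dusp1, 16 of 18 for Dusp2, 15 of 16 for Dusp5 and 15 of 21 for Dusp6.

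Detection in the same cell showed how far the members overlapped. After thinning to 1000 UMIs, no member was detected in 25.9% of MCAO and 16.04% of control mature-neutrophil-like cells, 1 member in 51.7% and 51.5%, and 2 members in 20.9% and 28.9%. The difference was smaller within clusters 1 and 7, with no member in 17.1% of MCAO and 15.2% of control cells of cluster 1 and in 18.6% and 18.9% of cluster 7. In cluster 11, which held 27.8% of MCAO and 1.53% of control cells of the class, the shares were 46.7% and 31.2%, the latter from 16 cells. Of pro-B-or-pre-B-like cells, 35.8% in the MCAO library and 22.8% in the control library had none, and 3 or more in 4.90% and 10.2%. Within cluster 5 the shares with none were 22.6% and 14.5%. In stem-or-progenitor-like cells none was detected in 79.3% of 116 MCAO cells and 56.3% of 103 control cells. Over all cells the shares with none were 56.9% of MCAO and 42.6% of control cells, which also reflects the different makeup of the libraries.

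Related genes were read from lists in the same classes. Of all ranked genes, 7.81% were lower and 6.37% higher by at least 1.5-fold in mature-neutrophil-like cells, and 2.83% and 2.13% in monocyte-like cells. The shares were 7.09% and 5.19% in cluster 1 and 8.51% and 11.4% in cluster 7. Of 19 other dual specificity phosphatases, 4 were ranked in mature-neutrophil-like cells, and 0 passed 1.5-fold, with a median log2 ratio of -0.32. The furthest from 0 was Ssh3, a slingshot phosphatase that acts on cofilin, at 0.351 in the MCAO library and 0.529 in the control library. In monocyte-like cells 12 were ranked and 1, Dusp16, was lower, at 0.0672 and 0.131, with a median of -0.14. The MAP kinases and their kinases, the substrates of the members and the enzymes that activate them, had medians of 0.06 over 14 genes in mature-neutrophil-like cells and 0.07 over 18 in monocyte-like cells. Only Mapk13, a p38 kinase, passed 1.5-fold in either class, at 1.67 in MCAO and 0.952 in control mature-neutrophil-like cells and at 0.284 and 0.166 in monocyte-like cells. The ERK feedback genes, which include the Sprouty and Spred inhibitors of ERK signalling, had 0 of 5 genes past 1.5-fold in mature-neutrophil-like cells, with a median of -0.17, and in monocyte-like cells 1 of 8, the transcription factor gene Egr1, at 0.1002 and 0.182.

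Immediate early genes, which like most of the members are induced within minutes of stimulation, had lower medians. In mature-neutrophil-like cells 6 of 16 ranked genes were lower by at least 1.5-fold and 0 higher, with a median log2 ratio of -0.48. Atf3 stood at 0.143 in the MCAO library and 0.875 in the control library, Jun at 0.872 and 1.86, Fos at 8.99 and 17.3 and Nr4a1 at 0.232 and 0.419. Within cluster 1 of the class 1 of 15 was lower, Atf3, with a median of -0.14, and within cluster 7 it was 1 of 13, Jun, with a median of -0.004. These counts lay near the shares of all ranked genes that were lower, 7.09% in cluster 1 and 8.51% in cluster 7. In monocyte-like cells 3 of 17 were lower, Atf3, Nr4a1 and Nr4a2, with a median of -0.34. Pro-B-or-pre-B-like cells had 8 of 15 lower, with a median of -0.60, but within cluster 5 it was 2 of 13 with a median of -0.19. Of all ranked genes, 8.59% were lower in that class and 10.8% in cluster 5. Glucocorticoid response genes had 3 of 10 lower in mature-neutrophil-like cells with a median of -0.48, led by the clock gene Per1 at 0.192 and 0.672, and 1 of 11, Per1, in monocyte-like cells with a median of -0.29. Heat shock genes, a sign of handling, had 2 of 7 lower in mature-neutrophil-like cells, Dnaja1 and Hsp90aa1, and 0 of 10 in monocyte-like cells, with medians of -0.07 and -0.23. Within clusters 1 and 7, 2 of 10 and 0 of 7 glucocorticoid response genes were lower, with medians of -0.24 and -0.28, as was 1 of 5 heat shock genes in each. Haemoglobin genes were higher by at least 1.5-fold in 4 of 4 cases in both classes. Granule genes were higher in 4 of 6 cases in mature-neutrophil-like and 5 of 6 in monocyte-like cells, and Ltf stood at 21.9 in MCAO and 6.25 in control mature-neutrophil-like cells. Within clusters 1 and 7 haemoglobin genes were again higher in 4 of 4 cases, and granule genes in 0 of 6. The part of handling and free RNA in these differences was not tested.

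Genes with the most similar pattern were named for each member over 26 points, the 13 classes in each library, among 9237 genes. For Dusp1 these were Ccl6 (Pearson r = 0.91), Hcar2 (0.91) and Herc4 (0.88). For Dusp2 they were Gm4759 (0.93), Id3 (0.92) and Zcchc11 (0.92), and for Dusp5 Crebbp (0.88), Pip5k1c (0.87) and Ddx5 (0.87). Dusp6 was closest to Neurl3 (0.93), Ssh2 (0.91) and Tmem71 (0.90), and Dusp10 to Ccr7 (0.92), Gpr18 (0.91) and Grap (0.91). For Dusp4 the closest were Gimap3 (0.85), Gimap7 (0.82) and Gimap8 (0.80), a pattern that rests on few UMIs. The points share libraries and depth, so these values are descriptive.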

How the data were processed

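Both libraries came in 1 table, deposited by the authors as natural log values. Per the submitters' processing notes, fastp, STAR, UMI-tools, Seurat 4.0.6 and the mm10 build were used; their settings, the cell filter and the annotation are not given in the sources used here. Linear values summed to 10000 in every cell, so each value is the natural log of 1 plus UMIs per 10000, and whole UMIs were recovered for 100% of values above 0 (tolerance 0.01 UMIs). Cells were assigned to libraries by the start of their column names, Mandarin words for control and stroke. No cell filter was added. Simulated doublets marked 64 MCAO (1.19%) and 54 control cells (1.04%), which were kept. The table held 0 mitochondrially encoded genes.

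All cells were clustered together without the 6 members (2000 variable genes, 30 principal components, 20 neighbours, Leiden resolution 1, 24 clusters; scanpy 1.11.5, leidenalg 0.10.2) and named from 20 marker sets. A name needed 3 markers detected in at least 20% of the cells of a cluster. Levels have exact Poisson, shares exact binomial (Clopper-Pearson) and ratios exact conditional binomial 95% intervals (scipy 1.17.1), and log2 ratios use a pseudocount of 0.02 per 10000. Recovery of known ratios was checked on simulated data. Named genes are the members, the 3 most similar genes of each among those with at least 500 UMIs, and up to 4 genes per list furthest from 0 in 2 classes. Members, lists and markers were chosen with earlier results of these data known.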

Additional observations from a re-analysis of the deposited data

Results flagged for a closer look

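3 ratios of a member had an interval above 1 in a cluster while other clusters had an interval below 1. None of these differences between clusters was tested, because each condition had 1 library. Dusp5 had a ratio of 1.65 [1.11 to 2.45] in the monocyte-like cluster 19, from 57 MCAO and 52 control UMIs, whereas 11 of 16 clusters had a Dusp5 interval below 1. Dusp6 had a ratio of 1.11 [1.00 to 1.23] in the mature-neutrophil-like cluster 1 and of 1.32 [1.01 to 1.72] in the basophil-or-mast-like cluster 18, whereas 7 of 21 clusters had a Dusp6 interval below 1.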

How the results depend on the processing

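No ratio of a member in mature-neutrophil-like or monocyte-like cells that was lower by at least 1.5-fold changed its sign under any alternative. Values moved beyond their counting interval mainly with the weight of the clusters, an alternative chosen after seeing the data. This weighting used clusters of at least 20 cells per library, so cluster 11, with 16 control cells, took no part in it. The log2 ratio of Dusp1 in mature-neutrophil-like cells was -0.69, and it was -0.21 with clusters weighted alike, -0.27 without cluster 11, -0.61 at resolution 2, -0.63 among cells with at least 2000 UMIs, -0.57 as a mean over cells, -0.62 without the 20 most abundant genes and -0.52 after thinning. With clusters weighted alike, Dusp5 was -0.56 in mature-neutrophil-like cells, against -0.83, and -0.54 in monocyte-like cells, against -0.98. Dusp6 in mature-neutrophil-like cells was 0.18 with clusters weighted alike and 0.026 without cluster 11, against -0.11, and Dusp10 in monocyte-like cells was 0.58 with clusters weighted alike, against -0.16. The number of members lower in mature-neutrophil-like cells, 3, was 1 with clusters weighted alike and 1 at a fold of 2, and in monocyte-like cells, also 3, it was 1 and 0. In other classes 283 of 312 values stayed within their counting interval, and 302 kept the sign of the main log2 ratio. The log2 ratio of Dusp1 in basophil-or-mast-like cells ran from -0.62 to 0.68 under the alternatives. No paired analysis was possible because each condition had 1 library and the labels give no replicate numbers. With 1 library per condition, differences between animals, captures and conditions cannot be told apart, and at these depths Dusp4 allows no comparison.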
